A study of Mus musculus with 47 samples.

Results

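Hox genes encode homeodomain transcription factors that give cells along the body axis their position. In mammals they lie in the clusters Hoxa, Hoxb, Hoxc and Hoxd. Genes with low numbers are used from the hindbrain backwards, and genes with high numbers are used progressively closer to the tail and to the ends of the limbs. Adult fat cell precursors, fibroblasts and muscle keep much of the code laid down in the embryo, and fat depots are known to differ in the Hox genes they use. The members here are all genes whose symbol is Hoxa, Hoxb, Hoxc or Hoxd followed by a number. They are 39 of the 24391 genes counted: 11 in Hoxa, 10 in Hoxb, 9 in Hoxc and 9 in Hoxd.

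RNA came from C57Bl6 mice in 3 arms, harvested on day 21. NTB mice had no tumour, and the labels state no antibody or dose for them. IgG1 mice carried HT1080 tumours, which grow from a human fibrosarcoma cell line, and received the control antibody IgG1. 3P10 mice bore HT1080 tumours as well and were dosed with 3P10, an antibody to GFRAL, the brainstem receptor of the hormone GDF15. Each antibody was dosed at 3 mg/kg every week, starting when the tumour cells were injected. Brown fat, white fat of a depot that the labels do not name, and gastrocnemius, a calf muscle of the hindlimb, were taken. Age, sex and immune genotype are not given. There were 6 NTB, 5 IgG1 and 6 3P10 libraries of brown fat. For white fat and for muscle each arm had 5. Nothing in the labels says whether animals were pooled, so p-values measure the spread between these libraries.

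Levels are CPM, read counts brought to a common library total after TMM scaling, edgeR's correction for composition. A member is called expressed where its median over all libraries of a tissue was at least 1 CPM. Brown fat was prepared with a 3′ tag kit and held 798886 to 2459761 counts a library. White fat held 18621423 to 80661547 counts and muscle 24759436 to 33502175, prepared with another, directional kit. Brown fat was counted in a table of its own, so its levels are set beside the others without a test. Defining markers were high in the tissue of their label. Muscle markers were also read in fat, summing to 2.46 to 2508 CPM in brown fat and 639 to 2508 CPM in white fat. Fat cell markers were likewise read in muscle, where adipocyte markers summed to 299 to 1731 CPM and thermogenic markers to 65.4 to 349 CPM. Summed thermogenic markers such as Ucp1 were at 7194 to 11477 CPM in brown fat, adipocyte markers such as Adipoq at 15538 to 22365 CPM in white fat, and 12 muscle markers at 233186 to 490295 CPM in muscle. Testis and epididymis markers (7 genes) had no read in any library, and 5 kidney markers reached at most 7.38 CPM in sum. Some libraries stood apart in a principal component analysis run without the Hox genes. In muscle they were replicate 3 of NTB, replicate 2 of 3P10 and replicates 2 and 4 of IgG1. In white fat they were replicates 2 and 4 of IgG1, of which replicate 4 was also the deepest library. On the first component these 2 were at 76.6 and 93.1. White fat IgG1 replicate 5 came next at 30.0, and the other white fat libraries were at -2.06 or below.

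The upstream DNA of the members around which the results turn is shown first. Each line gives the 250 bases before an annotated start, 5′ to 3′ on the gene's strand, from RefSeq (GRCm38.p6), a build other than the submitters' mm9. Hoxa9 and Hoxd8 are the highest-numbered members of their clusters expressed in brown fat, and Hoxa10 and Hoxd9 are their neighbours beyond that border. Hoxa10 has 2 annotated starts. Hoxa5, Hoxb4 and Hoxc4 are members that moved between arms. Capitals mark matches on either strand to TATAAA, the TATA box, TGACAG, the core bound by Meis proteins, or TGATNNAT, a site of Pbx-Hox pairs.
Hoxa9, chr6:52227371-52227620, minus strand: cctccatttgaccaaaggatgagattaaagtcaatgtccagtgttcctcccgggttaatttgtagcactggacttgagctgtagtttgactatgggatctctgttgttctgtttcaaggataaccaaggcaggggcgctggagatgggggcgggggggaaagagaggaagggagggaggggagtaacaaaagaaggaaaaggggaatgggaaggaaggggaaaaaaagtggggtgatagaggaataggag
Hoxa10, chr6:52234940-52235189, minus strand: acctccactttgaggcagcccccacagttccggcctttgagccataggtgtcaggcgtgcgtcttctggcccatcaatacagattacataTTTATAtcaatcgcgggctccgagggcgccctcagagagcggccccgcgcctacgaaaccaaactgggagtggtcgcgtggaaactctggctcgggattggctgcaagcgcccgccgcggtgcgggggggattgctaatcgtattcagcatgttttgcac
Hoxa10, chr6:52240855-52241104, minus strand: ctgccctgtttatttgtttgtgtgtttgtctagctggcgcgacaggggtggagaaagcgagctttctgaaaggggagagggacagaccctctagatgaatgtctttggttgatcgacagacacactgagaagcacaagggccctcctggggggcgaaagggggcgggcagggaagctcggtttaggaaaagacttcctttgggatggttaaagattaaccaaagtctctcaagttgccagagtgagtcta
Hoxd8, chr2:74704365-74704614, plus strand: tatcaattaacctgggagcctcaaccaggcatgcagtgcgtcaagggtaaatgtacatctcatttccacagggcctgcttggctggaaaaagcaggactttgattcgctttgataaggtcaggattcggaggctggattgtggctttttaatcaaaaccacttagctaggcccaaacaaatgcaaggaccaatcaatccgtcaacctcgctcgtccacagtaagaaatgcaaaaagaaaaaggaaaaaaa
Hoxd9, chr2:74697513-74697762, plus strand: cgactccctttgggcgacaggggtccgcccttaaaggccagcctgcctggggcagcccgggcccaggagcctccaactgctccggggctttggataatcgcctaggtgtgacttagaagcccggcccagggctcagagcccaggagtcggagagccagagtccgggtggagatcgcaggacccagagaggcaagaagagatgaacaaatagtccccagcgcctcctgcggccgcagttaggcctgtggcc
Hoxa5, chr6:52204588-52204837, minus strand: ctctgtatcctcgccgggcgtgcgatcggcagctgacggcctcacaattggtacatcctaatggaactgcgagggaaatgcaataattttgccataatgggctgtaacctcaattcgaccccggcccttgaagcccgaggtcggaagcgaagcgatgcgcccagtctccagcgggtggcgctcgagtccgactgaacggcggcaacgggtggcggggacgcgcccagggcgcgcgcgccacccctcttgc
Hoxb4, chr11:96318017-96318266, plus strand: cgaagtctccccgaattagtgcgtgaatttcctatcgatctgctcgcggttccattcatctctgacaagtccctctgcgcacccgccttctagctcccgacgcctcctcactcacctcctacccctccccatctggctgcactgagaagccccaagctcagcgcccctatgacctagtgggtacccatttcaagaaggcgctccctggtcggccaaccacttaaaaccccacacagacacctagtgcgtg
Hoxc4, chr15:103034145-103034394, plus strand: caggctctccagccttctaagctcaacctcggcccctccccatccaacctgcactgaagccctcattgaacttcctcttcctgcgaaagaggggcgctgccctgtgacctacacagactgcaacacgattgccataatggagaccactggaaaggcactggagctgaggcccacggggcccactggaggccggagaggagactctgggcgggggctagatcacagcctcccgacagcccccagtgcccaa
Windows were present for 22 of 39 members, 24 windows in all. Hoxa10's window at chr6:52234940-52235189 held a TATA box, and none of the other 7 printed windows held any of the 3 motifs. Over all 24 Hox windows, TATAAA occurred in 4 (16.7%, against 12.4% of 32851 windows of all genes), TGATNNAT in 4 (16.7% against 7.68%) and TGACAG in 2 (8.33% against 15.9%). CpG dinucleotides had a median of 12.5 per Hox window and 6 over all windows. Hoxa5 held 28 CpGs, Hoxa9 held 3, and Hoxd8 held 6. These are letter matches only.

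The 3 tissues expressed different but overlapping sets of members. Of 39 members, brown fat expressed 20, white fat 27 and muscle 21. All 20 expressed in brown fat were also expressed in white fat, where they were 74.1% of the members expressed. White fat added Hoxa10, Hoxa11, Hoxb9, Hoxc9, Hoxc10, Hoxd3 and Hoxd9, which apart from Hoxd3 all have numbers of 9 or more. Hoxd3 had 7 reads in brown fat. It shares 68.6% of its exon bases with another gene on its strand, so its counts are uncertain. Muscle shared 13 members with brown fat and 18 with white fat, and at this threshold it alone expressed Hoxa13, Hoxc11 and Hoxd10. The 13 members expressed in all 3 tissues were Hoxa2, Hoxa3, Hoxa4, Hoxa5, Hoxa7, Hoxa9, Hoxb7, Hoxc4, Hoxc5, Hoxc6, Hoxc8, Hoxd4 and Hoxd8. The sets depend on the threshold and the scaling. At 0.5 CPM brown fat had 21 members, white fat 29 and muscle 28, and at 2 CPM they had 20, 21 and 18. White fat Hoxd10, with a median of 0.643 CPM, passes the lower threshold, and muscle Hoxa13, at 1.84 CPM, misses the higher one. Without TMM factors muscle Hoxa2 (0.679 CPM) and Hoxb7 (0.804 CPM) fall below 1 CPM and white fat Hoxa6 (1.11 CPM) passes it.

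**Figure D1:**
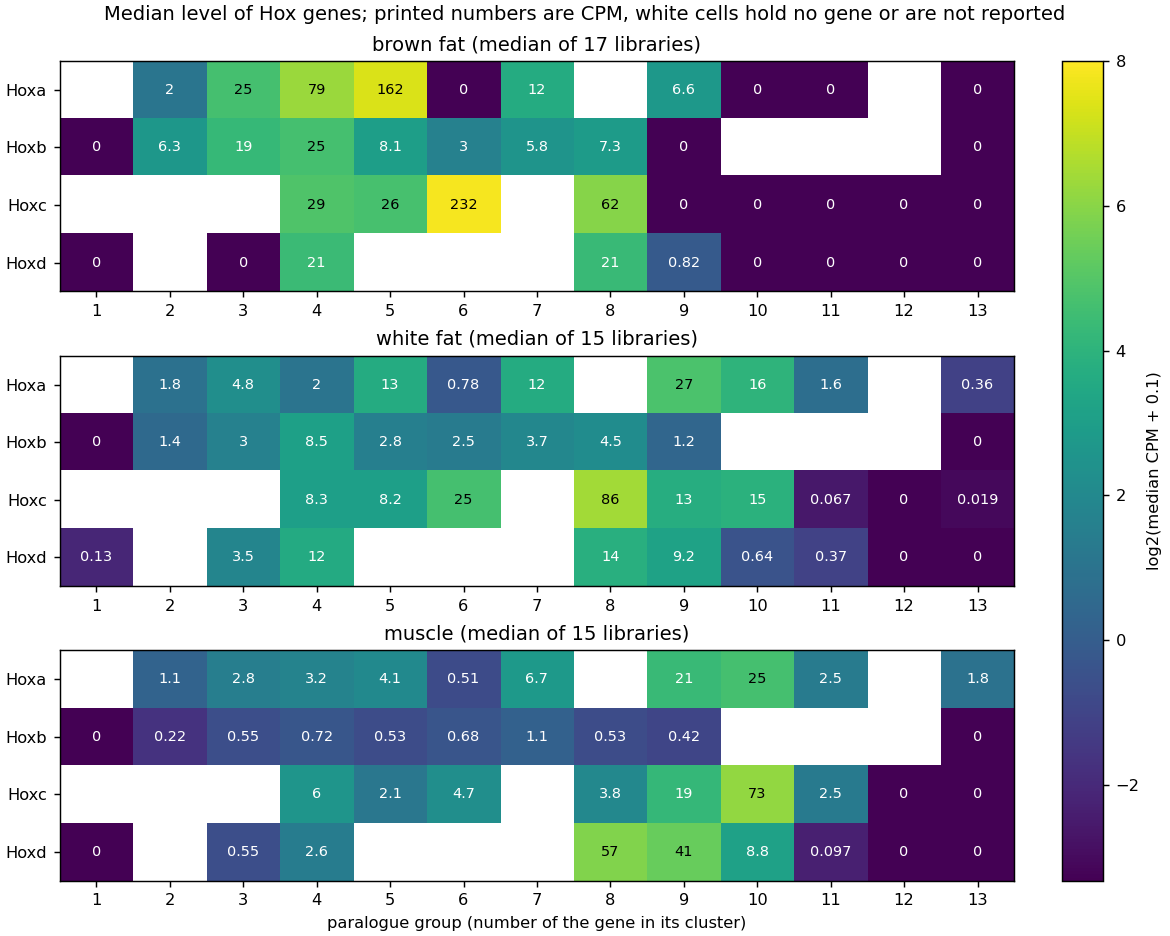
Median CPM of Hox genes, by cluster (rows) and paralogue group (columns), over 17 brown fat, 15 white fat and 15 muscle libraries; colour is log2(median CPM + 0.1) and white cells hold no gene or are not reported here. Brown fat is filled mostly in groups 2 to 8, with medians of 0 at Hoxa6, Hoxb1, Hoxd1 and Hoxd3, and from group 9 on Hoxa9 is at 6.55, Hoxd9 at 0.819 and all others are at 0; white fat reaches Hoxa11 and Hoxc10, and muscle is high at Hoxc10, Hoxd8 and Hoxd9 and low along Hoxb.

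In brown fat the Hox reads came almost wholly from the middle of the clusters. Groups 4 to 8 gave a median of 91.7% of Hox reads (range 89.0 to 94.8%, n = 17), groups 1 to 3 gave 7.36% and groups 9 to 13 gave 0.909% (range 0.426 to 2.03%). Hoxc6, a thoracic-level gene, had the most reads, with 232 CPM (150 to 312 CPM). Hoxa5, best known for its part in lung and neck development and also studied in fat cells, had 162 CPM (101 to 256). Hoxa4 had 78.9 CPM and Hoxc8 61.6 CPM. Because 3′ tag reads are not spread over a transcript, these levels were compared without dividing by length.

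The brown fat code ended abruptly. Hoxa9 had 127 reads, at least 1 in each of 17 libraries, at a median of 6.55 CPM. Its neighbour Hoxa10 had 0 reads over all 17 libraries, which allows a level of up to 0.149 CPM from counting error alone. Hoxa11, Hoxa13, Hoxb13, Hoxc11, Hoxc12, Hoxc13, Hoxd11, Hoxd12 and Hoxd13 also had 0 reads, as did the front-most Hoxb1 and Hoxd1. In Hoxc the step lay between Hoxc8 with 1337 reads and Hoxc9 with 5, and in Hoxd between Hoxd8 with 418 and Hoxd9 with 16. In Hoxb it lay between Hoxb8 with 153 reads and Hoxb9 with 2. Hoxc10 had 1 read and Hoxd10 had 2. The 16 members of groups 9 to 13 together gave 153 of 15328 Hox reads. This boundary was the same in every arm for Hoxa10, since all 17 libraries were at 0. In 16 of 17 libraries the highest Hoxa member at 1 CPM or more was Hoxa9, and in 3P10 replicate 6, with 1 Hoxa9 read (0.884 CPM), it was Hoxa7.

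White fat carried the same front and middle members and went on towards the tail. Groups 9 to 13 gave a median of 26.5% of its Hox reads (24.8 to 37.1%, n = 15). All 39 members had at least 1 read in some library, and 31 had reads in all 15. Per kilobase of exon (GENCODE M21 coding transcripts, GRCm38), Hoxc8 led with a median of 46.0 CPM per kb (17.2 to 82.4), ahead of Hoxc6 with 15.8 (6.15 to 28.2). Hoxa9 at 8.51, Hoxc10 at 7.75, Hoxa5 at 6.68, Hoxc9 at 5.64, Hoxa10 at 5.20 and Hoxd8 at 5.05 CPM per kb followed, with ranges that overlapped from neighbour to neighbour. Hoxd9 had 9.16 CPM (5.45 to 15.4), but the next members along that cluster were low: Hoxd10 at 0.643 CPM and Hoxd11 at 0.371 CPM. Hoxd12 had 5 reads and Hoxd13 33 reads over all 15 libraries. Hoxc11 was at 0.0672 CPM beside Hoxc10 at 14.8 CPM. Hoxb1 and Hoxb13, at the 2 ends of Hoxb, had 1 read each.

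Hoxd10, a gene of the lumbar level, varied widely among white fat libraries. It ranged from 0.261 to 3.91 CPM and lay above 1.6 CPM in NTB replicates 1, 2 and 3, IgG1 replicate 2 and 3P10 replicates 1 and 4. Hoxd10 shares 5.73% of its exon bases with another gene on its strand, so its counts are somewhat uncertain. Hoxd9 over the same 15 libraries ranged from 5.45 to 15.4 CPM. Summed mesothelial markers (8 genes, among them Wt1 and Upk3b) also varied widely, from 10.4 CPM in NTB replicate 5 to 298 CPM in NTB replicate 1. NTB replicate 5 had the lowest Hoxd10 value. NTB replicate 1, however, was at 2.41 CPM of Hoxd10, below NTB replicate 3 (3.91) and 3P10 replicate 4 (3.44). Mesothelial sums in 3P10 were at most 190 CPM. The part of mesothelium in the Hoxd10 levels was not tested. In bulk tissue, fewer cells of a type and less RNA per cell cannot be told apart.

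Muscle had the most posterior code. Groups 9 to 13 gave a median of 66.0% of Hox reads (63.0 to 73.9%, n = 15). Hoxc10, a gene of the lumbar level and the hindlimb, led per length with 38.0 CPM per kb (31.1 to 52.7). Hoxd8 at 20.8 (17 to 25.8) and Hoxd9 at 19.1 (16.6 to 31.1) followed, and these 2 overlapped each other. Hoxa10 had 7.90, Hoxc9 7.86, Hoxa9 6.36 and Hoxd10 4.84 CPM per kb. Hoxa11, a gene of the forearm and lower leg, was at 2.51 CPM, Hoxc11 at 2.46 CPM and Hoxa13, a gene of the hand and foot, at 1.84 CPM. Hoxd11 was at 0.0968 CPM, Hoxd13 had 1 read, and Hoxd12 had none. The whole Hoxb cluster was low: it gave 1.72% of Hox reads (0.873 to 2.28%), and its highest member, Hoxb7, had 1.05 CPM. Hoxb gave 10.2% of Hox reads in brown fat and 9.47% in white fat.

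**Figure D2:**
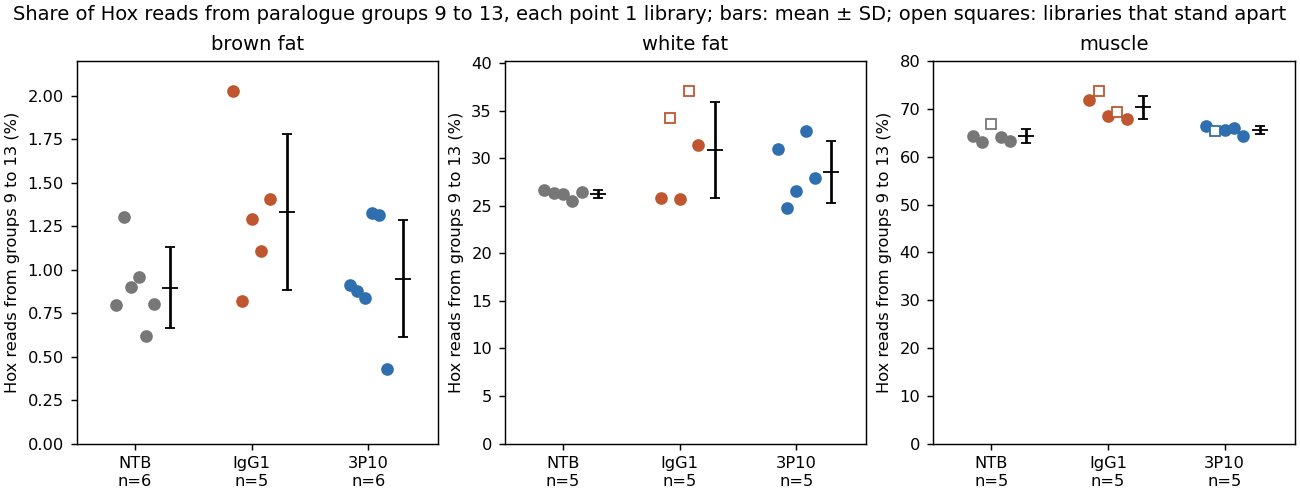
Percent of each library's Hox reads that came from groups 9 to 13, by tissue and arm (a separate axis for each tissue, all from 0); points are libraries, bars mean ± SD. The brown fat median is 0.909%, that of white fat 26.5% and that of muscle 66.0%; in muscle the 5 IgG1 libraries (68.0 to 73.9%) lie above the 5 NTB libraries (63.0 to 66.8%).

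White fat and muscle, counted in the same table, were compared in mice without tumours. Of 39 members, 32 passed the filter on low counts (the 7 left out were Hoxb1, Hoxb13, Hoxc12, Hoxc13, Hoxd1, Hoxd12 and Hoxd13), and 26 of these differed (edgeR quasi-likelihood test, Benjamini-Hochberg adjusted p under 0.05). White fat was higher for 20 and lower for 6. In groups 1 to 8, 18 members were higher in white fat and 1, Hoxd8, was lower. In groups 9 to 13, Hoxb9 and Hoxd11 were higher in white fat and 5 were lower. Between these tissues 71.7% of 14898 genes differed, 38.7% higher and 33% lower in white fat, beside 81.2% of the tested members. The median over tested members was 1.14 on the log2 scale, against 0.10 over all genes. The bracketed numbers in the titles of white fat and muscle libraries are the same, but whether 2 tissues with 1 number came from 1 animal is not stated, and the test treats them as independent.

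Hoxc8, which marks the thoracic level, showed the largest difference in favour of white fat. It was at 131, 115, 115, 132 and 81.0 CPM in white fat and at 4.14, 2.85, 7.88, 3.39 and 3.19 CPM in muscle, with no overlap, a log2 difference of 4.76 (SE 0.35, edgeR adjusted p = 9.8e-13). Hoxb4, a gene of the neck vertebrae that also acts in blood stem cells, had 11.4 ± 2.16 CPM in white fat and 1.08 ± 0.434 in muscle (SD, n = 5 each), a log2 difference of 3.39. Hoxb2, a hindbrain patterning gene, had a log2 difference of 3.15, Hoxd3 2.93, Hoxb8 2.85 and Hoxc6 2.77, all with edgeR adjusted p of at most 2.0e-07. Hoxd3 shares 68.6% of its exon bases with another gene on its strand. Hoxb2 shares 58.5% with a gene on the other strand, so the counts of both are uncertain. All 8 tested Hoxb members were higher in white fat.

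The 6 members higher in muscle were Hoxc11, Hoxd10, Hoxa13, Hoxd9, Hoxd8 and Hoxc10. Hoxc11 had 15 reads in white fat and 240 in muscle, summed over 5 libraries of each. Its CPM was 0.0732 ± 0.0819 against 2.34 ± 0.925 (SD, n = 5 each), a log2 difference of -4.85 (SE 0.56, edgeR adjusted p = 6.7e-09). Hoxd10 differed by -2.41, Hoxa13 by -2.25 and Hoxd9 by -2.23 on the log2 scale. Hoxd8 was at 12.8 ± 1.78 CPM in white fat and 57.1 ± 3.84 in muscle (SD, n = 5 each), a log2 difference of -2.16. Hoxc10 was at 16.6 ± 3.12 and 64.6 ± 4.64 CPM (SD, n = 5 each), a log2 difference of -1.96 (SE 0.11, edgeR adjusted p = 2.3e-15).

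The direction turned inside the Hoxc cluster, between Hoxc8 (4.76) and Hoxc10 (-1.96), with Hoxc9 between them at -0.32 (edgeR adjusted p = 0.28). Hoxd turned earlier, between Hoxd4 (2.20) and Hoxd8 (-2.16). Counts of Hoxd4 are uncertain, as it shares 45.1% of its exon bases with another gene on its strand. Hoxd11 lay outside the order in Hoxd, with 2.55 (SE 0.79) in favour of white fat, but it had few reads. NTB muscle held 14 over 5 libraries, at 0.0968 to 0.199 CPM. NTB white fat held 1 to 83 in a library, at 0.0326 to 1.67 CPM, so the tissues overlapped. In Hoxa, Hoxa9 (0.37), Hoxa10 (-0.29) and Hoxa11 (-0.22) missed the threshold. Hoxa4 and Hoxc4 did as well, so 6 members did not pass in all. The scaling moved these counts. Without TMM factors the median of all genes moved from 0.10 to 1.07, the split of all calls from 5764 of 10680 to 9883 of 11875 higher in white fat, and the Hox calls to 25 higher and 6 lower, and none of the 26 members changed direction.

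**Figure D3:**
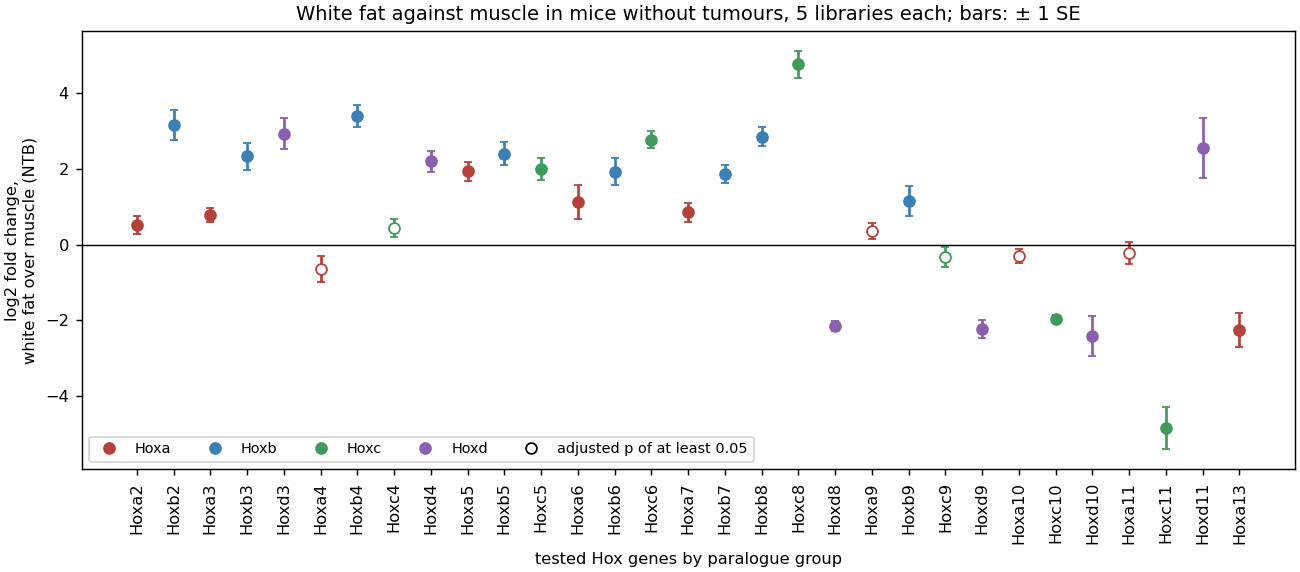
Log2 fold change of white fat over muscle in NTB mice for tested Hox genes (1 of the 32 is not shown), ordered by paralogue group and coloured by cluster; bars are ± 1 SE and open points had an adjusted p of at least 0.05. Groups 1 to 7 lie mostly above 0, Hoxc8 is highest at 4.76 and Hoxc11 lowest at -4.85.

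Genes that act with Hox factors were read from lists, beside the 71.7% of all genes that differed between these tissues. Of 9 cofactor genes of the Pbx, Meis and Pknox families, 6 were higher and 2 lower in NTB white fat than in NTB muscle (88.9% called). Meis2 was higher by 4.04 (SE 0.35) and Pknox2 lower by a log2 difference of -5.22 (SE 0.25, edgeR adjusted p = 5.2e-17). Meis2 was at a median of 18.6 CPM in white fat and 1.34 in muscle, and at 46.4 CPM in brown fat. Other genes of position, 16 of 23 tested, were higher for 7 and lower for 7 (87.5% called). Among the 7 that were lower in white fat were the limb genes Tbx15 (-7.81), En1 (-5.14) and Tbx4 (-4.76). Tbx5, which is used in the forelimb and chest, was at 19.2 CPM in brown fat, where white fat had 0.624 and muscle 0.0846. Zic1, known from brown fat and back tissues, was at 15 CPM in brown fat and 0.432 in muscle. Of noncoding RNAs in the clusters, Hotair, which lies between Hoxc11 and Hoxc12, was at 3.37 CPM in muscle and 0.141 in white fat (log2 difference -4.07, SE 0.39), and Hotairm1 was higher in white fat by 2.78 (SE 0.30). Of that list 7 of 17 were tested, with 1 higher and 5 lower. The strand setting of the counting is not known, so reads of a noncoding RNA and of a gene overlapping it on the other strand cannot be told apart.

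The chromatin complexes that keep Hox genes off (Polycomb) or on (Trithorax) had shares of called genes no higher than that of all genes. Polycomb genes (18 of 18 tested) were higher in white fat for 7 and lower for 4, with Phc1 at -1.02 (SE 0.10), so that 61.1% were called. Trithorax genes and histone demethylases (10 of 10) were higher for 1, Men1 at 1.09, and lower for 6 (70% called). Retinoic acid, which opens the clusters in the embryo, is sensed by receptors of the Rar and Rxr families. Of 13 tested genes of its receptors and response out of 16 listed, 3 were higher, with Dhrs3 at 3.09 (SE 0.27), and 5 lower, with Rxrg at -2.63 (SE 0.19), so that 61.5% were called.

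Between arms of a tissue, 0 to 4 of the tested members were called in a comparison. In these comparisons the share of members called ran from 0 to 13.3% and that of all genes from 0 to 11.6%. In brown fat no member differed between IgG1 and NTB, where 2.97% of all genes did (0 of 15 tested with edgeR, 1 with an unadjusted p under 0.05, 0 with DESeq2). Only 15 members passed the filter. Hoxc5 had the smallest p, with a log2 difference of -0.54 (SE 0.21, edgeR adjusted p = 0.17). Hoxb7 (-0.71, SE 0.37) and Hoxc8 (-0.26, SE 0.17) came next. The median over the 15 was -0.10, and all genes had -0.01.

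Under 3P10, brown fat held more Hoxa5. NTB libraries ranged from 101 to 162 CPM with a median of 135. IgG1 libraries were at 126, 130.3, 131, 190.1 and 162 CPM. 3P10 libraries ranged from 170.3 to 256 CPM with a median of 194. Every 3P10 library lay above every NTB library (1 of 20 expressed members and 2.37% of 11732 genes at that level did not overlap between these arms), and 4 of 6 also lay above the highest IgG1 library. Against IgG1, Hoxa5 rose by 0.44 on the log2 scale (SE 0.13, edgeR adjusted p = 0.032). Hoxc5 rose by 0.63 (SE 0.21, edgeR adjusted p = 0.048), from 17.9, 19, 16.9, 25 and 17 CPM in IgG1 to a range of 19.9 to 38.0 in 3P10. Its NTB libraries ranged from 17.7 to 40.0 CPM and overlapped both. These were the 2 of 15 members called, 13.3%, where 11.6% of all genes were called. Next was Hoxd8 at 0.36 (SE 0.18, edgeR adjusted p = 0.21).

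Against NTB, 1 of 15 members passed in 3P10 brown fat, beside 5.76% of all genes, and it was Hoxa5 again at 0.59 (SE 0.13, edgeR adjusted p = 0.014). That call held under all 24 alternatives, among them leaving out each of 17 libraries in turn. The Hoxa5 call against IgG1 was lost without any of IgG1 replicates 1, 2 or 3 or 3P10 replicates 4 or 6, with adjusted p up to 0.090. The Hoxc5 call was lost under 15 of 24 alternatives, 12 of them a left-out library. Both comparisons use the same 3P10 libraries. Hoxb4 at -0.49 and Hoxb7 at -0.66 did not pass. Fibroblast markers moved in these samples too: Dcn, Cd34 and Pdgfrb, 3 of 7 tested in that list, were lower in 3P10 than in IgG1 and in NTB. Their summed level was 684 to 865 CPM in NTB, 593 to 936 in IgG1 and 533 to 724 in 3P10. Of 6 thermogenic markers, Ucp1, Otop1 and Cidea were higher and Dio2 was lower (-1.87) in 3P10 than in IgG1, and Otop1 and Cidea were higher than in NTB. The sum of that list was 7194 to 9232 CPM in NTB, 7556 to 8998 in IgG1 and 8073 to 11477 in 3P10. Of 5 endothelial markers tested, Pecam1 was lower than in IgG1, and Tek and Cdh5 were lower than in NTB. Their sum was 665 to 961 CPM in NTB, 433 to 960 in IgG1 and 470 to 685 in 3P10. The adipocyte marker Plin1 was higher than in NTB, and the Schwann cell marker Mbp was higher than in IgG1. Muscle markers summed to 711 to 2508 CPM in NTB, 153 to 1861 in IgG1 and 2.46 to 2049 in 3P10, with 0 of 9 tested called. The part of any of these in the Hoxa5 and Hoxc5 differences was not tested.

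**Figure D4:**
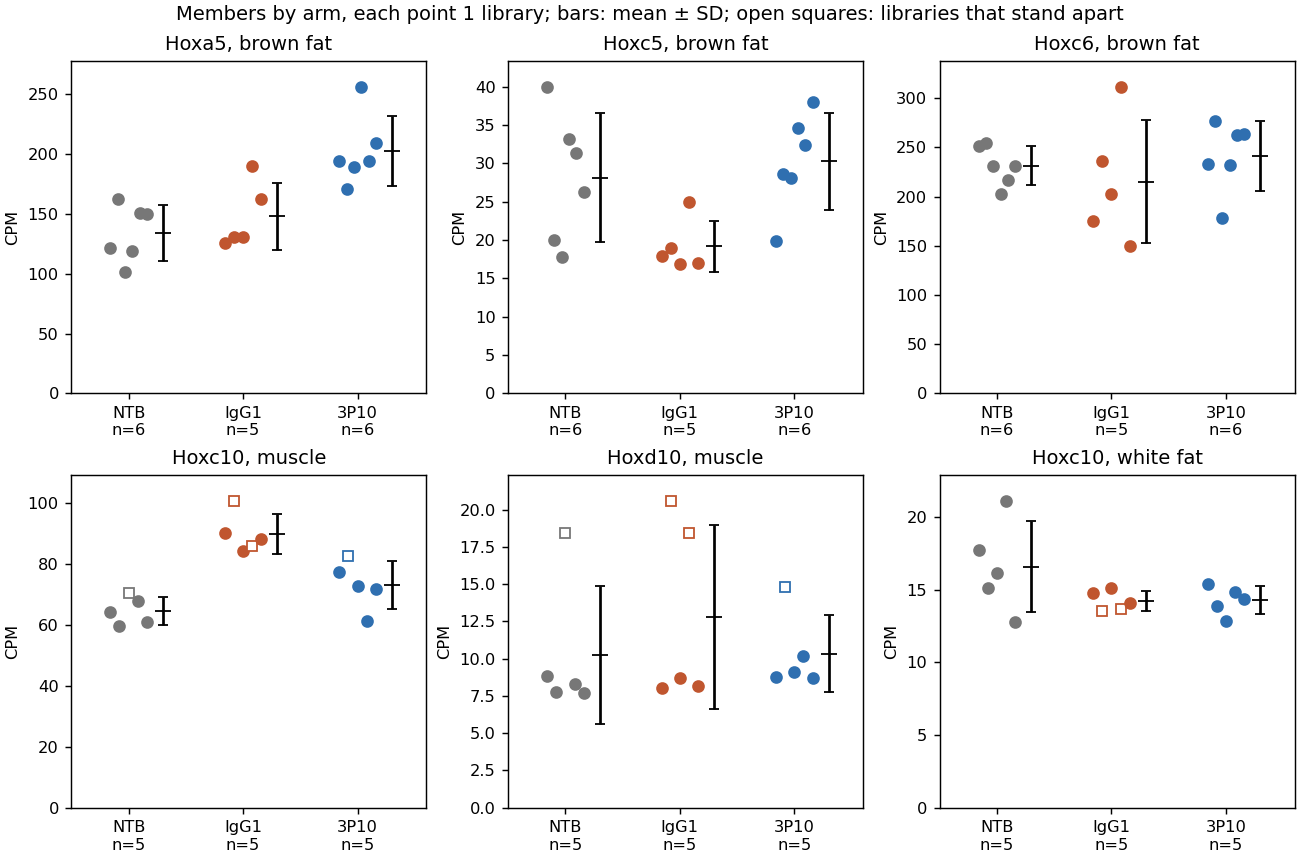
CPM by arm for Hoxa5, Hoxc5 and Hoxc6 in brown fat, Hoxc10 and Hoxd10 in muscle and Hoxc10 in white fat; points are libraries and bars mean ± SD. In brown fat all 6 3P10 libraries lie above all 6 NTB libraries for Hoxa5; in muscle the 5 IgG1 libraries lie above all others for Hoxc10, and open squares mark libraries that stood apart, with Hoxd10 of 14.8 CPM or more in muscle.

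In white fat, the middle genes Hoxc4, Hoxb4 and Hoxc6 fell and Hoxa13 rose with tumour and IgG1. These were 4 of 31 tested members (12.9%), where 8.64% of all genes were called. Hoxc4 was at 12, 9.05, 9.98, 10.6 and 6.68 CPM in NTB and at 6.45, 4.87, 5.88, 4.11 and 5.66 CPM in IgG1. Those groups did not overlap, and Hoxc4 fell by 0.87 on the log2 scale (SE 0.19, edgeR adjusted p = 0.016). Hoxb4 was at 12, 10.1, 14.1, 12.4 and 8.50 CPM in NTB and at 7.28, 7.74, 6.15, 5.76 and 5.63 CPM in IgG1, again without overlap. It fell by 0.84 (SE 0.21, edgeR adjusted p = 0.026). With Hoxb7, which was not called, 3 of 27 expressed members did not overlap between these arms, beside 9.5% of 12391 genes at that level.

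Hoxc6 was at 33.5, 27.9, 25.1, 44.6 and 22.9 CPM in NTB and 26.4, 13.7, 22.9, 9.72 and 15.6 CPM in IgG1. These groups overlapped, and it fell by 0.83 (SE 0.24, edgeR adjusted p = 0.046). Hoxa13 had few reads, 6 to 11 in each NTB library, or 0.161 to 0.358 CPM. It was at 0.229, 0.934, 0.611, 1.27 and 0.828 CPM in IgG1 and rose by 1.75 (SE 0.43, edgeR adjusted p = 0.024). Of the 31, 25 had a negative sign, and their median was -0.28, beside 50.7% negative and a median of -0.01 over all genes. Hoxc8, singled out here after its values were seen because it was the most abundant member, was at 131, 115, 115, 132 and 81.0 CPM in NTB and 94.8, 40.9, 85.3, 32.1 and 55.0 CPM in IgG1, and missed the threshold (-0.92, SE 0.28, edgeR adjusted p = 0.053).

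In white fat, IgG1 replicates 2 and 4 stood apart from the rest of the white fat, with Ucp1 at 2384 and 2293 CPM (26.9 to 519 elsewhere), and a summed epithelial marker level of 207 and 790 CPM against 3.39 to 34.5. Replicate 4 had Krt14, a skin keratin, at 207 CPM, and was the library with Hoxd13 at 0.298 CPM against at most 0.0292 elsewhere. Their fibroblast marker sums were 576 and 501 CPM, below the 774 to 2584 of the others. In these 2 libraries 7 of 27 expressed members lay outside the range of the other 13, a share of 25.9%, beside 31.5% of all genes at that level. Hoxc8 was at 32.1 to 40.9 CPM there and 55.0 to 154 in the others, and Hoxb8 was at 5.37 to 7.21 against 3.76 to 5.11.

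Without them, with 3 IgG1 libraries left, among them the partly shifted replicate 5, none of the 4 members passed (0 of 31 calls). Hoxc4 had -0.71 (edgeR adjusted p = 0.11), Hoxb4 -0.87 (0.098), Hoxc6 -0.53 (0.22) and Hoxa13 1.27 (0.18), all adjusted p from edgeR. The difference of Hoxb4 was a little larger than with all libraries, and those of the other 3 were smaller. No call remained without NTB replicate 1 either, 2 remained without IgG1 replicate 2, and 1 remained without IgG1 replicate 4, IgG1 replicate 5, NTB replicate 2 or NTB replicate 3. Fibroblast markers Col1a1, Col3a1 and Cd34, 3 of 9 tested, were lower in IgG1, with sums of 1715 to 2584 CPM in NTB and 501 to 1198 in IgG1. Krt14 was the 1 of 6 epithelial markers called, higher in IgG1. Muscle markers summed to 945 to 1374 CPM in NTB and 639 to 1658 in IgG1, with 0 of 9 tested called. What these cells contribute to the Hox difference was not tested.

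**Figure D5:**
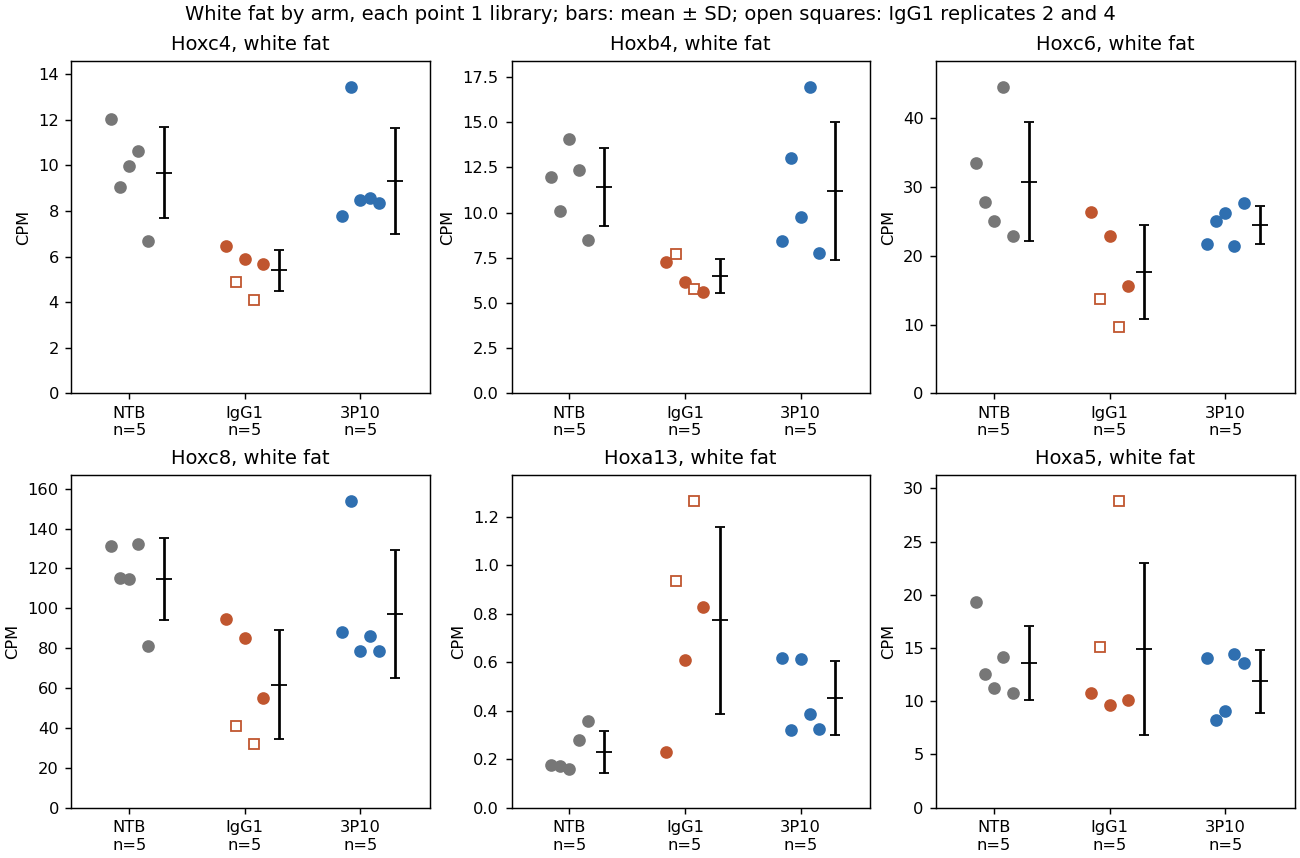
CPM by arm in white fat for Hoxc4, Hoxb4, Hoxc6, Hoxc8, Hoxa13 and Hoxa5; points are libraries, bars mean ± SD (n = 5 each) and open squares are IgG1 replicates 2 and 4. Hoxc4 and Hoxb4 of all 5 IgG1 libraries lie below all NTB and all 3P10 libraries; Hoxa5 of IgG1 replicate 4 is at 28.8 CPM, above the other 14.

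With 3P10, Hoxc4 and Hoxb4 in white fat were higher than with IgG1. Hoxc4 was at 7.78, 13.4, 8.47, 8.58 and 8.35 CPM, above every IgG1 library, and rose by 0.80 over IgG1 (SE 0.19, edgeR adjusted p = 0.027). Hoxb4 was at 8.45, 13, 9.78, 17 and 7.77 CPM, above every IgG1 library by a small margin, and rose by 0.79 (SE 0.21, edgeR adjusted p = 0.036). They were the 2 of 27 expressed members that did not overlap, beside 5.93% of 12391 genes. These were 2 of 31 members, beside 7.42% of all genes. Hoxa10 had the next smallest p (0.58, SE 0.22, edgeR adjusted p = 0.11). The comparison shares its IgG1 libraries with the one before. Col1a1, Col3a1 and Cd34 were higher too, with fibroblast sums of 1051 to 2013 CPM in 3P10, as was the lymphocyte marker Ptprc, while Krt14 was lower, and their part was not tested. Both calls were lost without IgG1 replicates 2 and 4 (0.64 with adjusted p = 0.17 for Hoxc4 and 0.82 with 0.15 for Hoxb4) and when NTB libraries were left out of the fit. Both were also lost without any one of IgG1 replicates 2, 4 or 5 or 3P10 replicates 2 or 3.

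Between 3P10 and NTB no white fat gene of any kind passed (0 of 31 members, 0% of 14402 genes with edgeR; 2 members and 542 genes had an unadjusted p under 0.05; DESeq2 called 0 members and 19 genes). Hoxa6 (-0.76, SE 0.30), Hoxa13 (0.99, SE 0.43) and Hoxc10 (-0.23, SE 0.12) had the smallest p.

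In muscle, Hoxc10 rose with tumour and IgG1. It was at 64.1, 59.4, 70.6, 67.8 and 61.0 CPM in NTB and at 90.0, 101, 84.1, 85.7 and 88.0 CPM in IgG1. The groups did not overlap, as for no other of 21 expressed members and for 6.63% of 12026 genes, and the log2 difference was 0.48 (SE 0.11, edgeR adjusted p = 0.017). It was the only one of 28 tested members called (3.57%), where 5.60% of all genes were. Hoxc9 (0.55, SE 0.27) and Hoxb4 (-0.69, SE 0.36) had the next smallest p. Without the 4 muscle libraries that stood apart, Hoxc10 had 0.47 (edgeR adjusted p = 0.015). It lost its call under 2 of 23 alternatives, of which 1 was leaving out NTB replicate 2 (edgeR adjusted p = 0.054). Fibroblast markers Col1a1, Col3a1, Pi16 and Cd34, 4 of 9 tested, were lower in IgG1 muscle, with sums of 1104 to 1290 CPM without tumours and 673 to 961 with IgG1. The endothelial marker Emcn (1 of 6) and Dio2 (1 of 6 thermogenic markers) were lower as well. Their part in the Hoxc10 difference was not tested.

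Under 3P10, Hoxc10 in muscle was at 77.4, 82.5, 72.6, 61.3 and 71.8 CPM, below all 5 IgG1 libraries and overlapping NTB. It was the 1 of 21 expressed members that did not overlap between 3P10 and IgG1, beside 2.44% of 12026 genes. Against IgG1 the log2 difference was -0.32 (SE 0.11), which did not pass (edgeR adjusted p = 0.26; DESeq2 adjusted p = 0.066). No member passed in that comparison (0 of 28 with edgeR or DESeq2, 1 with an unadjusted p under 0.05), where 0.211% of all genes did. Hoxa3 (-0.47, SE 0.22) and Hoxc9 (-0.39, SE 0.27) followed. Of 6 thermogenic markers tested, 1 was higher in 3P10 than in IgG1 muscle (16.7%). Their sums were 74.2 to 349 CPM in 3P10 and 75.1 to 140 CPM in IgG1, and their part was not tested. Against NTB, none of the 28 and 0% of 13283 genes passed with edgeR (2 members and 563 genes had an unadjusted p under 0.05, and DESeq2 called 0 members and 15 genes). Hoxa5 (0.38, SE 0.17), Hoxa13 (0.85, SE 0.40) and Hoxc10 (0.16, SE 0.11) had the smallest p.

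In muscle the share of Hox reads from groups 9 to 13 was 63.0 to 66.8% in NTB, 68.0 to 73.9% in IgG1 and 64.4 to 66.5% in 3P10, so that IgG1 lay above both. With Hoxc10 left out of the sum, IgG1 (54.6 to 64.9%) and NTB (52.3 to 58.9%) overlapped. No test was made of a sum over the members. In white fat the share was 25.5 to 26.7% in NTB, 25.7 to 37.1% in IgG1 and 24.8 to 32.8% in 3P10, and in brown fat the arms overlapped. Within IgG1 white fat the highest shares, 34.2 and 37.1%, were those of replicates 2 and 4.

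White fat and muscle differed in their response for 1 member. From NTB to IgG1, Hoxc10 rose in muscle while white fat was at 17.8, 15.1, 16.2, 21.1 and 12.8 CPM in NTB and 14.8, 13.6, 15.1, 13.7 and 14.1 CPM in IgG1. The interaction was -0.69 on the log2 scale (SE 0.15, edgeR adjusted p = 0.020), the only call among 32 members (3.12%), beside 1.11% of all genes. It was lost under 5 of 38 alternatives, among them without IgG1 replicates 2 and 4 of white fat (-0.63, edgeR adjusted p = 0.14), without either of them alone, and without white fat NTB replicate 1. Hoxc6 (-0.94, SE 0.31) and Hoxa10 (-0.74, SE 0.25) did not pass. The interaction of tissue with 3P10 against IgG1 had 0 of 32 calls with edgeR or DESeq2 (4 members with an unadjusted p under 0.05), beside 0.208% of all genes. Hoxa10 (0.71, SE 0.25), Hoxa3 (0.56, SE 0.26) and Hoxc9 (0.77, SE 0.37) had the smallest p.

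Among muscle libraries, the 4 that stood apart differed in Hox genes across all arms. Hoxd10 was at 14.8 to 20.6 CPM in them and at 7.72 to 10.2 CPM in the other 11. Hoxa9 was at 27.8 to 31.5 against 17.7 to 24.7 CPM, and Hoxc4 at 7.37 to 14.3 against 4.81 to 6.39 CPM. Hoxa4 and Hoxc6 were also separated, making 5 of 21 expressed members (23.8%) beside 27.4% of all genes at that level. Hoxc11 was lowest in 2 of them, NTB replicate 3 at 0.794 CPM and 3P10 replicate 2 at 1.10 CPM. Their summed muscle marker level was 314139 to 490295 CPM against 233186 to 316006 CPM. These libraries were set apart by their whole profile and are not a study group. The bracketed numbers in their titles were 14, 15, 16 and 23, with S28 to S31 after them, both the highest among muscle libraries. White fat IgG1 replicates 2 and 4 had 14 and 23, but white fat libraries 15 and 16 did not stand apart. White fat IgG1 replicate 4 had S112, where the other white fat libraries had S2 to S15. What these numbers mark is not stated, and their part in the differences was not tested.

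Genes that act with or on the clusters were read beside the share of all genes called. No Hox cofactor passed in brown fat or muscle in any comparison, and in white fat Pknox2 rose with 3P10 over IgG1 (1.13, SE 0.32, edgeR adjusted p = 0.045). Pknox2 was 1 of 9 cofactors tested there (11.1%, beside 7.42% of all genes). Of Polycomb genes, Cbx7 and Ezh1 rose in muscle with tumour and IgG1 (1.02, SE 0.15, and 0.69, SE 0.12), 2 of 18 with none lower (11.1%, beside 5.60% of all genes). Cbx7 rose (0.57, SE 0.14) and Cbx6 fell (-0.83, SE 0.17) in white fat in the same comparison (11.1%, beside 8.64% of all genes). Cbx6 was higher with 3P10 than with IgG1 (0.82, SE 0.17), 1 of 18 (5.56%, beside 7.42% of all genes). Of 10 Trithorax genes and demethylases, only Kmt2b was called between arms of a tissue. It rose in muscle with tumour and IgG1 (0.54, SE 0.14), where 10% of the list and 5.60% of all genes were called. Cyp26b1, which degrades retinoic acid, fell in IgG1 brown fat (-1.93, SE 0.48) and was higher with 3P10 than with IgG1 (2.07, SE 0.48, edgeR adjusted p = 0.0074). Dhrs3 was also higher with 3P10 than with IgG1 there (0.70, SE 0.13). For IgG1 against NTB, brown fat had 1 of 9 tested retinoic acid genes called (11.1%, beside 2.97% of all genes). For 3P10 against IgG1 it had 2 of 9 (22.2%, beside 11.6% of all genes). Rxrg fell in muscle with IgG1 (-0.62), Rxrb rose in white fat (0.44), and Rara was higher in white fat with 3P10 than with IgG1 (0.86). Rxrg was 1 of 12 tested in muscle (8.33%, beside 5.60% of all genes). Rxrb and Rara were each 1 of 13 in white fat (7.69%, beside 8.64% and 7.42% of all genes). Of other position genes, Nr2f1 was lower in 3P10 than in NTB brown fat (-0.71, SE 0.18), 1 of 6 tested (16.7%, beside 5.76% of all genes). No noncoding RNA of the clusters was called between arms of a tissue.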

How the data were processed

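The deposited values are whole-number counts per gene, in 1 table for brown fat and 1 for white fat and muscle. Per the submitters' processing notes, Trim Galore, STAR 2.6.0a, featureCounts 1.6.2, edgeR 3.22.3 and the mm9 build were used. The annotation, strand setting and handling of molecular identifiers are not given in the sources used here. By GENCODE M21, 6 members share exon bases with another gene on their strand and 8 with a gene on the other strand, so their counts are uncertain. The largest shares on the same strand are 68.6% for Hoxd3, 45.1% for Hoxd4 and 23.9% for Hoxd11. On the other strand they are 63.9% for Hoxb3 and 58.5% for Hoxb2.

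CPM used TMM factors per table. Arms were compared with edgeR's quasi-likelihood test (edgeR 4.0.16, R 4.3.3) on counts kept by filterByExpr (minimum count 10, minimum total 15), fitted on all arms of a tissue, or on both tissues for white fat against muscle. P-values were Benjamini-Hochberg adjusted over all genes tested, with a threshold of 0.05. DESeq2 1.42.0, other filters and factors, a replicate block and leaving out libraries were the alternatives. Leaving out the libraries that stood apart was chosen after seeing the data. The code was tested on simulated data.

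Statistics are printed for members called between arms, filled up to 3 by the smallest p, for the 6 largest differences each way between tissues, and for up to 4 called genes of each other list. Members and lists were chosen with earlier results of these data known. Floors cover counting error only. Some genes counted in the totals are not reported here.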

Additional observations from a re-analysis of the deposited data

Results flagged for a closer look

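Libraries far from the rest of their own arm were looked for in 213 sets of values (1 member in 1 arm of 4 to 10 libraries). A gap to the nearest library above Dixon's 95% limit was found in 28. About 1 in 20 independent sets of normally distributed values would pass that limit. These sets share libraries, so that rate is no baseline for the 28. All values are CPM. In muscle, NTB replicate 3 was far above the other NTB libraries for 8 members. It had Hoxa4 at 7.61 (others 2.54 to 3.2), Hoxa7 at 14.5 (5.08 to 6.84), Hoxa9 at 29.3 (17.7 to 20.6) and Hoxc4 at 14.3 (4.81 to 5.97). It also had Hoxc8 at 7.88 (2.85 to 4.14), Hoxc9 at 31.5 (12.7 to 16.1), Hoxd9 at 63.3 (36.9 to 40.0) and Hoxd10 at 18.5 (7.72 to 8.86). In muscle 3P10 replicate 2, Hoxa7 was at 12.8 (4.91 to 6.8), Hoxc4 at 10.7 (5.5 to 6.21), Hoxc6 at 6.07 (4.53 to 4.95), Hoxc9 at 31.3 (17.2 to 19.2) and Hoxd10 at 14.8 (8.73 to 10.2). Both libraries are among the 4 of muscle that stood apart by their whole profile, as is IgG1 replicate 4, with Hoxa7 at 11.6 (6.2 to 6.92). Elsewhere in muscle, Hoxa10 was low at 22.3 in 3P10 replicate 3 (24.7 to 25.3), Hoxa13 low at 1.21 in IgG1 replicate 5 (1.93 to 2.21) and Hoxc5 high at 4.04 in IgG1 replicate 1 (1.35 to 2.02).

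In white fat, 3P10 replicate 2 was high for 5 members of Hoxb and Hoxc. Hoxb3 was at 7.01 (2.68 to 3.24), Hoxb6 at 6.43 (1.98 to 2.93), Hoxc4 at 13.4 (7.78 to 8.58), Hoxc8 at 154.0 (78.4 to 88.1) and Hoxc9 at 33.3 (12.7 to 14.8). Hoxb8 was low at 3.9 in 3P10 replicate 4 (4.57 to 4.84), Hoxa5 high at 28.8 in IgG1 replicate 4 (9.61 to 15.1) and Hoxc9 high at 19.3 in NTB replicate 4 (12.7 to 14.6). In brown fat, Hoxb6 was low at 1.13 in IgG1 replicate 3 (3.57 to 4.49), Hoxc5 high at 25 in IgG1 replicate 4 (16.9 to 19) and Hoxa7 high at 18.8 in NTB replicate 3 (10.9 to 13). Hoxc10 differed between white fat and muscle in its change from NTB to IgG1, by the interaction test, with a log2 difference of -0.694.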

How the results depend on the processing

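All 12 named calls between white fat and muscle kept their call under every alternative run. Of 11 named calls between arms or for an interaction, 1 did, Hoxa5 in brown fat 3P10 against NTB. None of 46 named tests turned its direction. In brown fat 3P10 against IgG1, 1 member rather than 2 was called without the low-count filter and with a filter of at least 1 CPM. Leaving out 1 library gave 0 to 2 members there, 1 to 2 in brown fat 3P10 against NTB, 0 to 5 in white fat IgG1 against NTB, 0 to 3 in white fat 3P10 against IgG1, 0 to 2 in muscle IgG1 against NTB and 0 to 2 for the IgG1 interaction. Without white fat IgG1 replicates 2 and 4, 0 members were called in white fat IgG1 against NTB, 0 in 3P10 against IgG1 and 0 for the IgG1 interaction. With the compared arms alone, white fat 3P10 against IgG1 had 0. The cause of these changes was not tested. Without its most abundant member the share of Hox reads from groups 9 to 13 was 1.35% for brown fat, 39.3% for white fat and 55.2% for muscle, in the same order.

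Same-numbered libraries deviated together (correlation over 0.1) in 0 of 16 brown fat, 8 of 15 white fat and 9 of 15 muscle pairs. For other-numbered pairs the counts were 14 of 80, 16 of 60 and 29 of 60. These counts do not settle whether the numbers pair samples, and the main tests did not pair them. The numbers in brackets in the titles are the same in white fat and muscle for all 15 libraries. It is not stated whether they mark 1 animal. Of these same-numbered pairs 4 of 15 were over 0.1, and of other-numbered pairs in the same arm 5 of 60. With the replicate number (for both tissues together, the number in brackets) as a block, 1 member was called in brown fat 3P10 against IgG1, 0 in muscle IgG1 against NTB (Hoxc10 adjusted p = 0.0525) and 0 for the IgG1 interaction (Hoxc10 adjusted p = 0.0822). The 26 calls between white fat and muscle were still 26, 20 higher and 6 lower. Brown fat's depth limits the low members: 3 counts are worth 1.22 to 3.76 CPM in 1 library.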
